A study of Mus musculus with 2 samples.

Results

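The genes Pxdc1, Lmo2, Gsn, Tespa1, Bfsp2, Hs3st1 and Neurl3 were followed through B cells sorted from mouse hearts. They were selected on these data, as genes that led groups of mostly adult cells, and they are 7 of the 31053 genes in the count tables. Their higher level in the adult library is therefore how they were chosen and is described without a test. What the choice did not fix is how the difference was spread over cells with and without Cr2, over depth, over B cell markers and over the genes themselves.

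The neonatal library held cardiac B cells of C57BL6/J mice aged 2 weeks, of both sexes, and the adult library held cardiac B cells of male C57BL6/J mice aged 8 weeks. Each library was pooled from 6 wild-type hearts, sorted as live B cells on the same day, and read with a 3′ droplet chemistry that counts each captured transcript once as a unique molecular identifier (UMI). With 1 library per age, the age, the pool of animals, the sex makeup and the library cannot be told apart, and no p-value is given. The intervals below are 95% intervals that cover counting error only, not the spread between animals.

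Cells were droplets with at least 2000 gene UMIs, at most 10% of them mitochondrial, and at least 1 UMI of Cd79a, which encodes the signalling chain CD79A of the B cell receptor. This left 2077 neonatal and 3611 adult cells, with medians of 6000 and 6131 UMIs and totals of 16403180 and 34623240 UMIs. B cell markers were plentiful in both, with Cd79a at 2688 and 2656 CPM (UMIs scaled to counts per 1e6 UMIs of the library). Between the libraries, 61 neonatal cells and 45 adult cells had a barcode with at least 500 UMIs in the other table, and 2 barcodes were cells in both. Macrophage transcripts summed over 6 genes were 83.6 CPM in neonatal and 13.0 CPM in adult cells. Transcripts of 4 neutrophil genes summed to 25.4 and 0.029 CPM, with S100a8 at 0 UMIs in adult cells.

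Mature B cells that recirculate are commonly told apart by 2 surface proteins. CD21, encoded by Cr2, is the receptor for complement fragments and is high on marginal zone cells and present on follicular cells. CD23, encoded by Fcer2a, is the low-affinity IgE receptor and marks follicular cells. Newly formed transitional cells carry Vpreb3, part of the surrogate light chain machinery, and B1 cells, a self-renewing population set up early in life, carry the repressor Zbtb32.

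The members have unrelated roles. Pxdc1 encodes a protein with a PX domain, a fold that in other proteins binds membrane phosphoinositides. Lmo2 encodes a LIM-only adaptor that bridges transcription factors in early blood formation. Gsn encodes gelsolin, which severs and caps actin filaments when calcium rises. Tespa1 encodes an adaptor of thymocytes that couples antigen receptor signals to calcium release through inositol trisphosphate receptors. Bfsp2 encodes phakinin, an intermediate filament protein of the eye lens. Hs3st1 encodes a 3-O-sulfotransferase that finishes heparan sulfate chains. Neurl3 encodes a RING-type ubiquitin ligase of the Neuralized family.

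In GRCm38 the genes lie on 6 chromosomes. Pxdc1 is at chr13:34627834-34653486 on the minus strand, Lmo2 at chr2:103957986-103981878 on the plus strand and Gsn at chr2:35256380-35307892 on the plus strand. Tespa1 is at chr10:130322870-130364111 on the plus strand, Bfsp2 at chr9:103424924-103480420 on the minus strand, Hs3st1 at chr5:39613935-39755475 on the minus strand and Neurl3 at chr1:36264597-36274679 on the minus strand. All are protein coding. GENCODE places a gene on the opposite strand over Pxdc1 (Gm15908), Lmo2 (4931422A03Rik) and Bfsp2 (5830418P13Rik and Gm16252), and Gm43128 on the same strand within Gsn, so that reads in the shared bases may belong to either gene. Whether the counting used strand is not given in the sources used here.

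Promoter sequence from RefSeq (GRCm38.p6), the 250 bases before a transcription start, was available for 5 of the 7 members, in 7 windows because Gsn has 3 starts. Short motifs were searched on both strands. TGGGAA is the core bound by RBPJ, the factor downstream of Notch, and GAGGAA is a core of ETS factors such as PU.1. The E-box, the site of helix-loop-helix factors, was searched in the form CAGCTG. It was also searched, as E proteins bind it, in the form CAGGTG. The TATA box was searched for with the letters TATAAA. The GC box, which SP1 binds, was searched for as GGGCGG. No motif was held by more than 2 of the 5 members. TATAAA was held by Pxdc1 and Neurl3, and by 12.4% of all 32851 windows of the same length. TGGGAA was held by Pxdc1 and Gsn, and by 21.6% of all windows. GGGCGG was held by the same members as TGGGAA, and by 32.7% of all windows. GAGGAA was held by Gsn and Bfsp2 (23.3% of all windows), CAGGTG by Gsn and Bfsp2 (17.2%) and CAGCTG by Gsn (13.0%). The Hs3st1 window held none of the 6 motifs.

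The stretches just before the RefSeq starts of Pxdc1 and Neurl3 show the TATAAA matches of these 2 members. Whether these matches act as TATA boxes was not tested. The whole Bfsp2 window is shown because Bfsp2 differed from the other members in several comparisons below. The windows of Pxdc1, Neurl3 and Bfsp2 lie within the GENCODE spans of these genes given above. Those of Pxdc1 and Neurl3 each overlap 2 GENCODE exon entries. The Cr2 window is shown as that of the gene used to split the cells. All are on the minus strand and read 5′ to 3′ in gene direction, and capitals mark matches to the 6 motifs in either direction. The coordinates are chr13:34652692-34652721 for Pxdc1, chr1:36273435-36273464 for Neurl3, chr9:103449177-103449426 for Bfsp2 and chr1:195176720-195176969 for Cr2.
Pxdc1: TGGGAAgtgcctTATAAAgccgcagcccgt
Neurl3: TATAAAaggggaaccttccggagtcttgta
Bfsp2: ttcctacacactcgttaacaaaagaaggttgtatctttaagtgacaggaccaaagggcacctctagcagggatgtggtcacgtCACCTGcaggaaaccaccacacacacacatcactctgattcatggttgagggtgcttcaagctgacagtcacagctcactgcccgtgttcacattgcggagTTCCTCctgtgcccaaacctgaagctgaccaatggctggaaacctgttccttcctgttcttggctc
Cr2: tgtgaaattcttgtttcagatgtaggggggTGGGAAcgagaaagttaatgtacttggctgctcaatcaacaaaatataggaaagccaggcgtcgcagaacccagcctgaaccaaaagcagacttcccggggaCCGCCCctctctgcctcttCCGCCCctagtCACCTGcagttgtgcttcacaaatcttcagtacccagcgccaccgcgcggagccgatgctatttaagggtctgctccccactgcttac

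Pxdc1 was counted with 467 UMIs in neonatal and 2651 UMIs in adult cells. Its level was 28.5 CPM (25.9 to 31.2) in neonatal cells and 76.6 CPM (73.7 to 79.5) in adult cells, a log2 ratio of 1.43 (1.29 to 1.57). After each cell was thinned at random to 2000 UMIs, so that both libraries had equal depth, 6.16% (5.17 to 7.28) of neonatal and 15.9% (14.7 to 17.1) of adult cells held a Pxdc1 UMI. As sequenced, without thinning, the shares were 17.0% and 39.8%.

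Tespa1 was the member with the highest log2 ratio, at 26.7 CPM (24.3 to 29.3) in neonatal and 76.6 CPM (73.7 to 79.6) in adult cells, or 1.52 (1.37 to 1.67). At equal depth it was found in 5.39% of the neonatal and 13.1% of the adult cells. Gsn had the fewest UMIs, at 15.1 CPM (13.3 to 17.1) and 34.5 CPM (32.6 to 36.5), with a log2 ratio of 1.19 (0.99 to 1.39) and shares of 3.32% and 7.06%. A single neonatal cell held 9 Gsn UMIs, 3.63% of that library's Gsn UMIs.

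Bfsp2 was at 28.7 CPM (26.1 to 31.4) in neonatal and 66.3 CPM (63.7 to 69.1) in adult cells. Its log2 ratio was 1.21 (1.07 to 1.36), while its share of cells at equal depth went from 5.97% to 10.6%. The ratio of shares was 1.77 and the ratio of levels 2.32. For Pxdc1 the same pair of ratios was 2.57 and 2.69. These are unlike measures, since shares used thinned cells and levels all UMIs, in which deep cells weigh more. With levels also taken from thinned cells, the log2 ratio was 0.84 for Bfsp2 and 1.49 for Pxdc1. With another draw of the thinned UMIs the Bfsp2 shares were 5.92% and 11.7%.

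Lmo2, Hs3st1 and Neurl3 were read in more cells. Lmo2 was at 85.2 CPM (80.8 to 89.8) in neonatal and 170 CPM (166 to 174) in adult cells, a ratio of 1.99 with a log2 interval of 0.91 to 1.08, and 16.3% and 28.4% of cells held a UMI at equal depth. Hs3st1 was at 70.4 CPM (66.4 to 74.6) and 130 CPM (126 to 134), a log2 ratio of 0.88 (0.79 to 0.98), with shares of 11.8% and 20.2%. Neurl3 was at 98.3 CPM (93.6 to 103) and 180 CPM (175 to 184), a log2 ratio of 0.87 (0.79 to 0.95), with shares of 17.3% and 32.2%.

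The interval of the adult level lay above that of the neonatal level for all 7 members, as the choice of the genes had fixed. In adult cells 4 members (Pxdc1, Gsn, Tespa1 and Bfsp2) were at least 2-fold higher, where 3.25% of the 10703 genes with at least 50 UMIs were, and nothing is read from that count. The median log2 ratio was 1.19 over the members and -0.13 over all genes tested, so that most genes were slightly lower in CPM in adult cells. In place of total UMIs, scaling by the median ratio of genes with at least 50 UMIs in each library raised every ratio by 0.15. It put 7 of the 7 members past 2-fold. As a mean over cells or after thinning to 2000 UMIs, 3 members passed it, without Bfsp2 (log2 ratios 0.93 and 0.84). For comparison, Cr2 rose from 27.4 to 121 CPM (log2 ratio 2.14) and Fcer2a from 171 to 279 CPM (0.71).

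**Figure D1:**
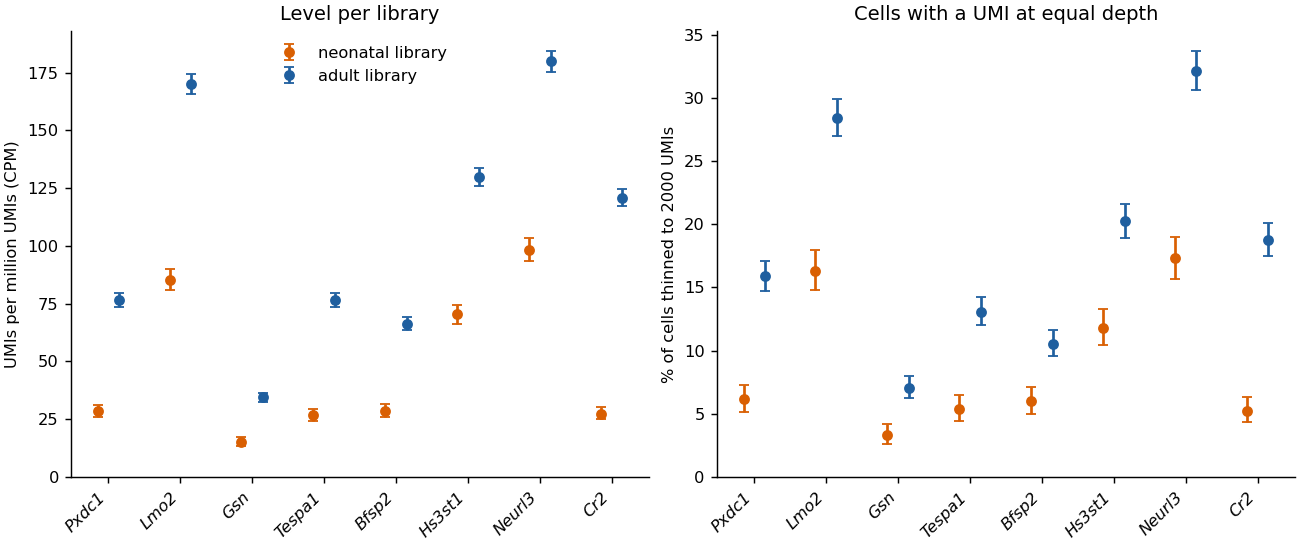
Level in CPM (left) and % of cells with a UMI after thinning each cell to 2000 UMIs (right) for the 7 members and Cr2 in the neonatal (orange) and adult (blue) library. Points are single libraries and bars are 95% intervals for counting error only. Adult points lie above neonatal points for every gene, from 28.5 to 76.6 CPM for Pxdc1 and from 98.3 to 180 CPM for Neurl3.

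Free RNA in the droplets held the members too. In near-empty droplets of 10 to 100 UMIs, the members' CPM ranged from 0.51 times that of the cells of the same library (Tespa1, neonatal) to 1.43 times (Lmo2, neonatal). Near-empty droplets averaged 60.5 UMIs (neonatal) and 66.8 UMIs (adult). At that amount, free RNA would give a UMI in 0.163% of thinned adult cells for Pxdc1 and in 0.449% for Lmo2, against the 15.9% and 28.4% that held one. In droplets with at least 2000 UMIs but no Cd79a UMI, 14 neonatal and 4 adult, Pxdc1, Bfsp2 and Hs3st1 had 0 UMIs. In the same droplets Tespa1 had 2 UMIs in 1 neonatal and 7 UMIs in 3 adult droplets, and Gsn had 7 UMIs in 3 neonatal droplets. Neurl3 had 6 UMIs in 4 neonatal and 3 UMIs in 2 adult droplets, and Lmo2 had 1 UMI in a neonatal droplet.

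The question that the split by Cr2 addressed was whether the adult level of the members went with the larger number of Cr2-positive cells at 8 weeks. At 2000 UMIs per cell, 109 neonatal cells, 5.25% (4.33 to 6.30), and 677 adult cells, 18.7% (17.5 to 20.1), held a Cr2 UMI. At this depth a cell without a Cr2 UMI may still express Cr2. Over all UMIs of the cells called without Cr2, Cr2 was at 19.0 CPM in neonatal and 83.7 CPM in adult cells. The split therefore did not hold Cr2 equal between the ages. Cells without Cr2 held 95.1% of neonatal and 80.6% of adult UMIs, so their ratios largely repeat the contrast on which the genes were chosen. All 7 members were higher in adult than in neonatal cells on both sides of the split, with every interval above 0.

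Among cells without a Cr2 UMI, Pxdc1 was at 27.5 CPM (25.0 to 30.2) in neonatal and 70.9 CPM (67.8 to 74.1) in adult cells. Its log2 ratio of 1.37 (1.22 to 1.52) there was close to the 1.43 of all cells. Tespa1 went from 26.1 to 73.5 CPM, a log2 ratio of 1.49 (1.34 to 1.65), and Neurl3 from 96.5 to 177 CPM, 0.87 (0.79 to 0.96). The median ratio of the 7 members in these cells was 1.14, and the same 4 members as over all cells passed 2-fold, where 3.2% of genes did.

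Among cells with a Cr2 UMI, Pxdc1 was at 47.4 CPM (33.6 to 65.1) in neonatal cells, from 38 UMIs, and at 100.1 CPM (92.7 to 108) in adult cells, a log2 ratio of 1.08 (0.60 to 1.59). Bfsp2 had the highest ratio there, 28.7 CPM against 74.6 CPM, or 1.38 (0.78 to 2.05). Neurl3 had the lowest, 134 CPM against 193 CPM, or 0.53 (0.24 to 0.83). The median over the members was 0.91, and 3 members (Pxdc1, Tespa1 and Bfsp2) passed 2-fold, where 5.38% of genes did. The genes were chosen on the adult over neonatal contrast, and nothing is read from that count.

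The ratio was lower with Cr2 than without for 6 of the 7 members, but only for Neurl3 did the interval of that difference lie below 0, at -0.35 (-0.64 to -0.05), while for Pxdc1 it was -0.29 (-0.78 to 0.20). This order rested on the random draw that set which cells counted as Cr2-positive. A second draw gave 113 neonatal and 658 adult cells, and Pxdc1 then had a ratio of 1.75 with Cr2 and 1.28 without. Lmo2, Gsn and Bfsp2 likewise had the higher ratio with Cr2 in the second draw, and Tespa1 was at 1.47 on each side. Neurl3 and Hs3st1 kept the lower one with Cr2, at 0.58 against 0.86 and 0.57 against 0.87. With Cr2 called at 1000 UMIs, Neurl3 was nearly equal on the 2 sides, at 0.863 with and 0.866 without. With Cr2 called from all UMIs of each cell (343 and 1702 cells), the ratios with Cr2 ran from 0.77 for Neurl3 to 1.54 for Tespa1. Those without ran from 0.83 to 1.32. Cells called Cr2-positive in this way were deeper, as given below for the adult library.

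**Figure D2:**
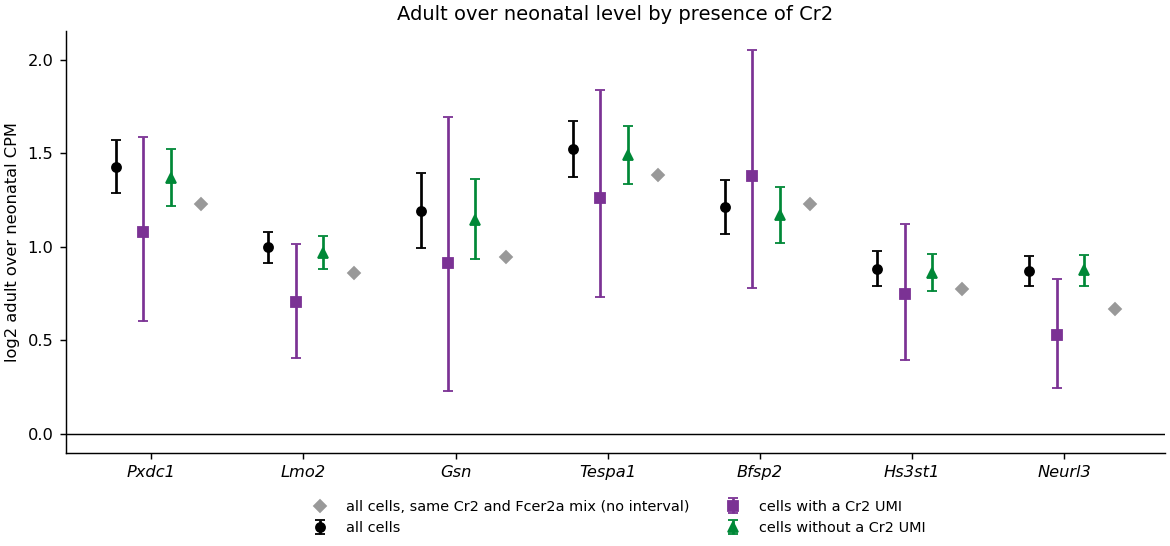
Log2 ratio of the adult over the neonatal CPM of each member, in all cells (black circles), in cells with (purple squares) and without (green triangles) a Cr2 UMI at 2000 UMIs, and after the neonatal cells were weighted to the adult mix of Cr2 and Fcer2a classes (grey diamonds, without an interval). Bars are 95% intervals for counting error only and the line marks equal levels. Every point lies above 0, the lowest being Neurl3 in cells with Cr2 at 0.53.

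Cells were also divided into 4 classes by Cr2 and Fcer2a UMIs at equal depth. The class with neither held 71.3% of neonatal and 48.1% of adult cells, Fcer2a alone 23.4% and 33.2%, Cr2 alone 3.37% and 10.6%, and the pair together 1.88% and 8.14%, the last from only 39 neonatal cells. If the neonatal classes had been present in the adult proportions, the neonatal level of Pxdc1 would have been 32.6 in place of 28.5 CPM, and its log2 ratio 1.23 in place of 1.43. For Neurl3 the ratio would have been 0.67 in place of 0.87, for Gsn 0.95 in place of 1.19, and for Bfsp2 1.23 in place of 1.21. The median over the members was 0.95 with equal class proportions and 1.19 without. The weighting made the called classes equal, not the expression inside them. In the class with neither, all UMIs put Cr2 at 16.4 CPM in neonatal and 74.2 CPM in adult cells, and Fcer2a at 68.6 and 150 CPM.

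Within the class with neither transcript, all 7 members were higher in adult cells. The log2 ratios ran from 0.91 (0.81 to 1.02) for Neurl3 to 1.58 (1.40 to 1.77) for Tespa1. That class held 73.4% of neonatal and 52.0% of adult UMIs, so its ratios largely repeat the contrast on which the genes were chosen. The cells with both transcripts gave a more varied picture. There Neurl3 was at 235 CPM in neonatal and 208 CPM in adult cells, a log2 ratio of -0.18 (-0.54 to 0.21). Gsn, at 41.5 and 44.4 CPM, had a ratio of 0.10 (-0.76 to 1.09), and Hs3st1 one of 0.28 (-0.24 to 0.85). The intervals of these 3 members spanned 0. Pxdc1 at 0.94 (0.23 to 1.73), Lmo2 at 0.56 (0.11 to 1.04), Tespa1 at 1.10 (0.27 to 2.07) and Bfsp2 at 1.74 (0.60 to 3.21) were higher in adult cells of that class as well.

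**Figure D3:**
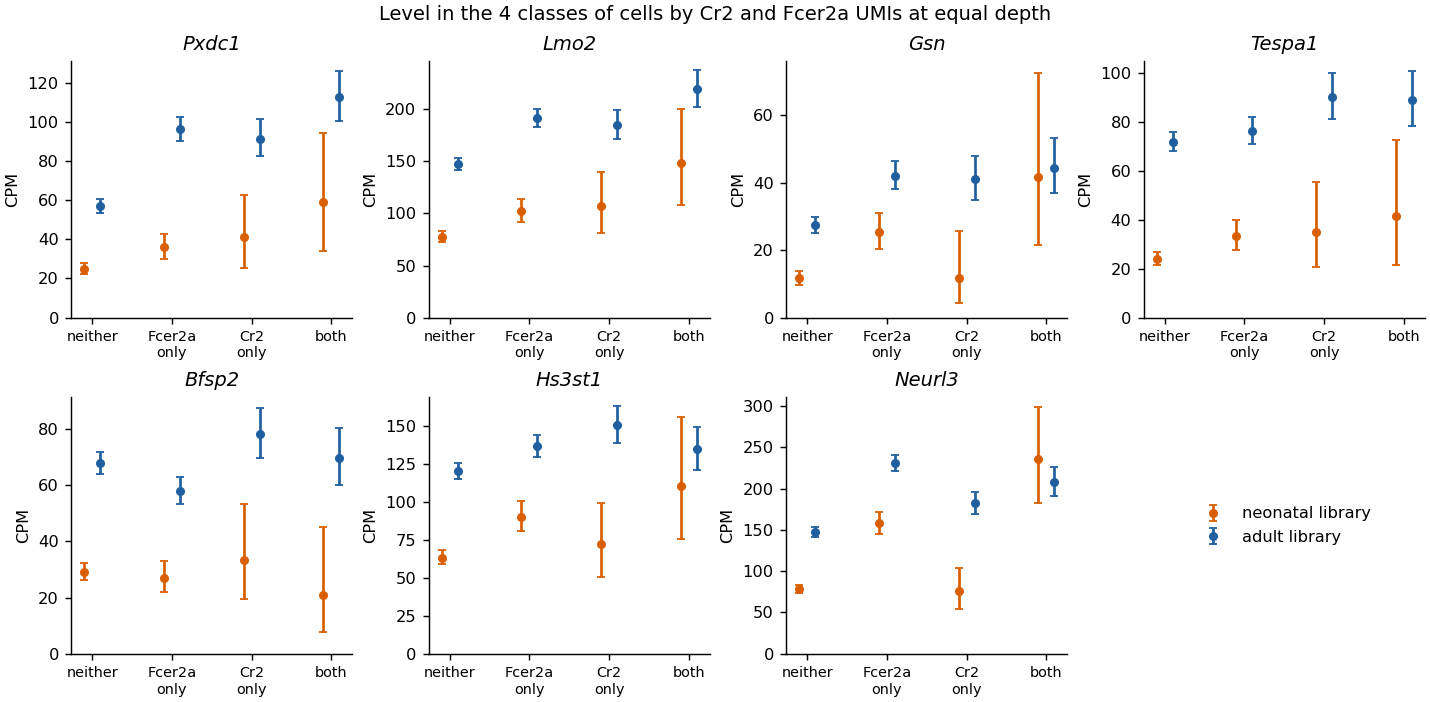
CPM of each member in cells with neither Fcer2a nor Cr2, with Fcer2a only, with Cr2 only and with both, in the neonatal (orange) and adult (blue) library, with 95% intervals for counting error. Neonatal cells with both transcripts number 39, so their intervals are wide. For Neurl3 the 2 libraries overlap in that class, at 235 and 208 CPM, while in cells with neither transcript they are apart for every member.

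Inside the adult library alone, the members were little higher in cells with Cr2. Pxdc1 was at 100.1 CPM with and 70.9 CPM without Cr2, a log2 difference of 0.50 (0.37 to 0.62), the highest of the 7. Gsn followed at 0.38 (0.18 to 0.57), and Neurl3 was lowest at 0.12 (0.03 to 0.21). All 7 intervals lay above 0, with a median of 0.29 over the members and 0.0014 over all genes. The number of all genes with such an interval was not counted. None of the members reached 1.5-fold, where 1.12% of genes did. In the second draw 2 members reached it, Pxdc1 at 0.73 and Gsn at 0.60. With Cr2 called from all UMIs of each cell, the differences ran from -0.05 for Neurl3 to 0.61 for Gsn. The sign for Neurl3 thus depended on how Cr2 was called. That call also sorted cells by depth. Adult cells with 0 Cr2 UMIs had a median of 4628 UMIs, and those with 3 or more had 13678. In the main draw the adult medians were 6777 UMIs with and 5960.5 without Cr2. The part of depth in the Cr2 differences was not tested.

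Inside the neonatal library, Pxdc1 was at 47.4 CPM with and 27.5 CPM without Cr2, a difference of 0.79 (0.27 to 1.27), and Gsn differed by 0.61 (-0.17 to 1.30). These were the 2 members that reached 1.5-fold, where 5.87% of genes did. In the second draw neither did, with Pxdc1 at 0.26 and Gsn at 0.33, so the neonatal values are not firm at 109 cells. Bfsp2 was at 28.7 CPM with and 28.6 CPM without Cr2, a difference of 0.00 (-0.67 to 0.61). The neonatal medians were 6228 UMIs with and 5980.5 without Cr2, and the part of depth was not tested.

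Presence with Cr2 cell by cell gave small correlations. In adult cells at 2000 UMIs, 152 held both Pxdc1 and Cr2 where 107 were expected from the 2 shares, a ratio of 1.41. The phi coefficient, the correlation of presence across the 3611 cells, was 0.087. For Neurl3 217 cells held both where 218 were expected. In neonatal cells 8 held both Pxdc1 and Cr2, where 6.72 were expected. The largest ratio was that of Gsn in neonatal cells, with 9 cells against 3.62 expected, a ratio of 2.49 and a phi of 0.065. Thinned adult cells held Pxdc1 in 15.9% and Cr2 in 18.7%, so a small phi cannot show how strongly the genes are co-expressed. A phi of this size in sparse counts is given as a description only.

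The members were also compared between cells with and without UMIs of other B cell markers. These markers were called from 1 random draw of the thinned UMIs, and the comparisons were not repeated with another draw. Neurl3 was higher in cells with an Fcer2a UMI, by 0.56 (0.48 to 0.63) on the log2 scale in adult and 1.07 (0.92 to 1.21) in neonatal cells. Gsn was higher with Fcer2a by 0.51 (0.34 to 0.68) and 1.19 (0.81 to 1.56), and Pxdc1 by 0.66 (0.55 to 0.77) and 0.55 (0.26 to 0.84). Bfsp2 went the other way in adult cells, at -0.20 (-0.33 to -0.08), and was at -0.15 (-0.48 to 0.17) in neonatal cells. Cells with Fcer2a had medians of 5233.5 UMIs (adult) and 6060.5 UMIs (neonatal) against 7163 and 5977 without. The part of depth in the Fcer2a differences was not tested.

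Cells with a Zbtb32 UMI, 76 adult and 48 neonatal, had lower CPM of Neurl3 and Pxdc1 in both libraries. These cells were also deeper, with a median of 14210 UMIs against 5993 without Zbtb32 in the adult library and 15082.5 against 5949 in the neonatal library, and the levels of both genes were lower in deep cells, as given below with the depth ranges. Neurl3 was at 80.3 CPM with and 184 CPM without Zbtb32 in adult cells, a difference of -1.20 (-1.48 to -0.92), and at 21.8 against 103 CPM in neonatal cells, -2.24 (-2.95 to -1.60). Pxdc1 differed by -1.12 (-1.55 to -0.71) and -1.96 (-3.28 to -0.90). Lmo2 was at 143 against 171 CPM in adult cells, -0.26 (-0.47 to -0.05), and at 26.2 against 88.7 CPM in neonatal cells, -1.76 (-2.41 to -1.18). Tespa1 did not differ beyond its interval in either, at -0.09 (-0.39 to 0.20) and -0.31 (-1.03 to 0.34).

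Cd9, a tetraspanin of B1 and marginal zone cells, gave a like order. With Cd9, Neurl3 differed by -1.53 (-1.73 to -1.33) in adult and -1.38 (-1.85 to -0.95) in neonatal cells, and Pxdc1 by -1.52 (-1.84 to -1.21) and -0.78 (-1.53 to -0.12). Bfsp2 was at -0.06 (-0.28 to 0.15) and -0.05 (-0.62 to 0.48). With Zbtb32, Bfsp2 was at 0.34 (0.06 to 0.62) in adult and -0.66 (-1.45 to 0.04) in neonatal cells. Cells with Cd9 had medians of 13529 UMIs (adult) and 13881 UMIs (neonatal) against 5827 and 5933 without. The part of depth in the Zbtb32 and Cd9 differences was not tested.

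The calcium-binding protein gene S100a6, carried by B1 cells among others, split Bfsp2 in opposite directions. Cells with S100a6 had medians of 11838.5 UMIs (adult) and 11292.5 UMIs (neonatal) against 4918 and 5773 without. In adult cells Bfsp2 was at 77.8 CPM with and 58.4 CPM without S100a6, 0.41 (0.29 to 0.53). In neonatal cells it was at 21.6 against 31.0 CPM, -0.52 (-0.87 to -0.18). Tespa1 was higher with S100a6 in adult cells, 0.23 (0.12 to 0.34), and was at -0.21 (-0.55 to 0.12) in neonatal cells. Neurl3 was lower with S100a6 in both, at -0.86 (-0.94 to -0.78) and -1.25 (-1.48 to -1.04).

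Vpreb3 UMIs were found in 1068 adult and 947 neonatal cells. These cells were shallower, with medians of 4992 UMIs (adult) and 5589 UMIs (neonatal) against 7007 and 6372.5 without. The part of depth in the Vpreb3 differences was not tested. Pxdc1 was higher with Vpreb3 in adult cells, 108 against 66.2 CPM or 0.71 (0.59 to 0.83), and in neonatal cells, from 220 UMIs with and 247 without, or 0.43 (0.16 to 0.69). Lmo2 was higher in both by 0.28 (0.20 to 0.36) and 0.37 (0.22 to 0.53). Neurl3 was higher with Vpreb3 in adult cells, 0.53 (0.45 to 0.61), but lower in neonatal cells, -0.17 (-0.31 to -0.02).

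Few cells held transcripts of the proliferation gene Mki67 (38 adult, 21 neonatal) or of the interferon-induced gene Ifit3 (154 adult, 16 neonatal). Neurl3 was lower with Mki67 in adult cells by -1.63 (-2.08 to -1.23) and in neonatal cells by -0.93 (-1.61 to -0.33), and Gsn had 0 UMIs in the 21 neonatal cells. The Mki67 cells had medians of 20348.5 UMIs (adult) and 12459 UMIs (neonatal) against 6083 and 5977.5 without, and the part of depth was not tested. With Ifit3, adult cells had more Tespa1, 0.50 (0.29 to 0.69), and less Pxdc1, -0.79 (-1.10 to -0.50), at medians of 10628 UMIs with and 5923 without. The 16 neonatal cells with Ifit3 held at most 18 UMIs of any member.

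**Figure D4:**
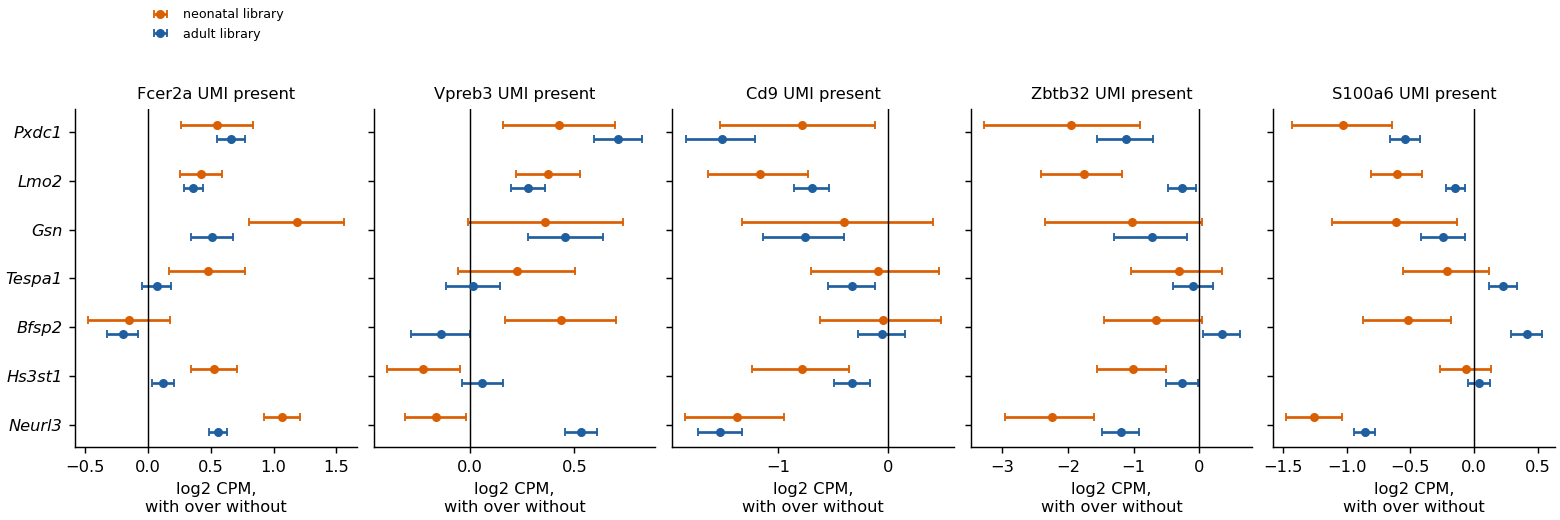
Log2 difference in CPM between cells with and without a UMI of Fcer2a, Vpreb3, Cd9, Zbtb32 or S100a6 for each member (rows), in the neonatal (orange) and adult (blue) library. Bars are 95% intervals for counting error, the vertical line marks no difference, and each panel has its own horizontal scale. Neurl3 lies left of the line in both libraries for Cd9, Zbtb32 and S100a6, while Bfsp2 lies on opposite sides for S100a6, at 0.41 in adult and -0.52 in neonatal cells.

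The levels of some members differed with the depth of the cell. In adult cells of 2000 to 4000 UMIs, 4000 to 8000 UMIs and 8000 or more UMIs (728, 1489 and 1394 cells), Neurl3 was at 287, 255 and 143 CPM. Pxdc1 was at 99.1, 114 and 61.6 CPM in the same ranges. Bfsp2 ran the other way, at 43.2, 61.0 and 70.6 CPM. Tespa1 stayed nearly level, at 71.9, 77.1 and 76.9 CPM. In neonatal cells (124, 1407 and 546 cells) Neurl3, Pxdc1 and Bfsp2 were lower at each step. Neurl3 was at 147, 125 and 68.9 CPM, Pxdc1 at 45.9, 39.4 and 16.6 CPM, and Bfsp2 at 39.0, 34.4 and 22.4 CPM.

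Within each of the 3 depth ranges, 6 members had an adult over neonatal ratio whose interval lay above 0. The genes were chosen on this contrast, so these ratios largely repeat it. The number of all genes with such intervals was not counted. Depth was not equal inside a range, with medians of 12960.5 UMIs (adult) and 11754.5 UMIs (neonatal) in the deepest. Pxdc1 had ratios of 1.11 (0.45 to 1.85), 1.53 (1.35 to 1.72) and 1.89 (1.63 to 2.16), and Neurl3 had 0.97 (0.60 to 1.36), 1.02 (0.91 to 1.13) and 1.06 (0.93 to 1.19). Bfsp2 was the exception, with 0.15 (-0.60 to 0.98), 0.83 (0.61 to 1.04) and 1.66 (1.43 to 1.89). Its difference between the ages was thus not detectable in the shallowest cells, where 17 neonatal UMIs were counted, and was largest in the deepest. S100a6 and depth, beside which Bfsp2 moved, were not separated from each other, and their part in its ratio was not tested.

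**Figure D5:**
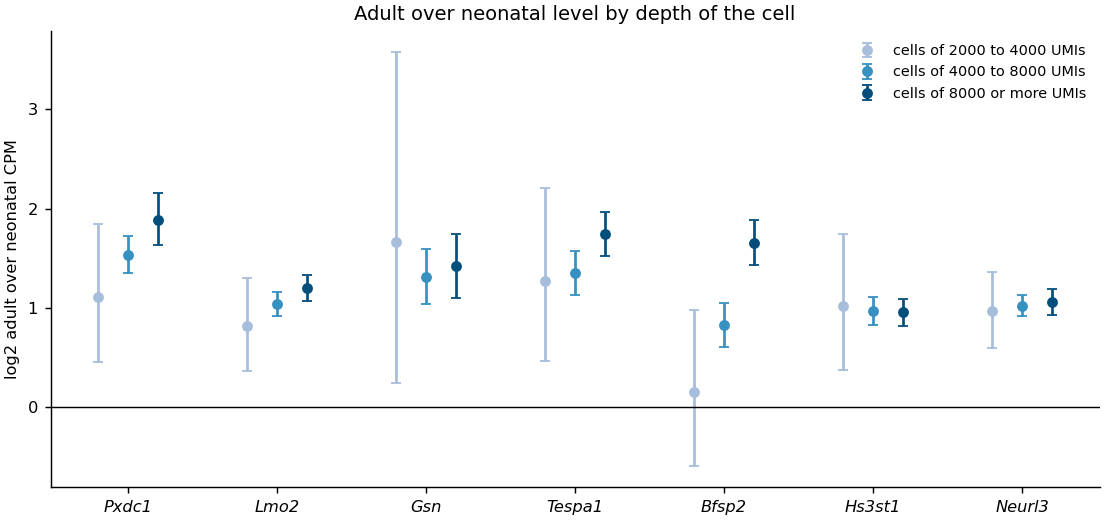
Log2 ratio of the adult over the neonatal CPM of each member in cells of 2000 to 4000, 4000 to 8000 and 8000 or more UMIs (light to dark blue), with 95% intervals for counting error. The line marks equal levels. The Bfsp2 ratio goes from 0.15 in the shallowest to 1.66 in the deepest cells, and the Neurl3 ratio stays between 0.97 and 1.06.

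Sex makeup was examined within the neonatal library, where 1279 cells held a Y-linked UMI and no Xist and 323 cells held Xist and no Y-linked UMI. These male and female cells had medians of 6269 and 5543 UMIs, and the part of depth in their differences was not tested. Neurl3 was lower in the male than in the female cells, 90.9 against 112 CPM or -0.30 (-0.50 to -0.09), and Hs3st1 was higher, 73.5 against 60.1 CPM or 0.29 (0.02 to 0.57). The intervals of the other 5 members spanned 0, from -0.35 (-0.72 to 0.04) for Bfsp2 to 0.13 (-0.29 to 0.56) for Pxdc1. With the neonatal cells limited to the male ones, the adult over neonatal ratio of the members ran from 0.82 for Hs3st1 to 1.57 for Tespa1, against 0.87 for Neurl3 to 1.52 for Tespa1 in all cells.

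Macrophages, fibroblasts and platelets are known to carry gelsolin. The 71 neonatal cells with a macrophage UMI held 5.15% of all UMIs, 4.50% of the Pxdc1 UMIs and 10.1% of the Gsn UMIs. In the 99 adult cells with a macrophage UMI the shares were 5.96%, 3.09% and 5.61%. The 3 neonatal cells with a platelet transcript held 3.63% of the Gsn UMIs and 0.244% of all UMIs. With cells holding at least 2 UMIs of any of 7 such lists left out, the log2 ratio of Gsn was 1.23 and that of Pxdc1 1.42. The part of such transcripts in the other values was not tested.

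Single cells seldom held many members. Among thinned cells, 50.1% (neonatal) and 74.2% (adult) held at least 1 of the 7, 13.1% and 37.0% held at least 2, and 2.70% and 12.8% at least 3. No cell held all 7. Of the 21 pairs of members, 17 in adult and 13 in neonatal cells were found together more often than the product of their shares. The share of all gene pairs above that product was not computed, and nothing is read from these counts. Over all 21 pairs the ratio of observed to expected cells ran from 0.86 to 1.46 in adult cells. The highest adult ratio was that of Pxdc1 and Gsn, 59 cells against 40.5 expected, and the lowest that of Bfsp2 and Neurl3, 105 cells against 122 expected. In neonatal cells Bfsp2 and Neurl3 were together in 14 cells against 21.4 expected. Across pairs phi stayed between -0.034 and 0.060 in adult cells, a description only in counts this sparse.

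Presence across adult cells was compared with that of all 4108 genes found in at least 5% of them. The 3 genes most like Pxdc1 were Cr2 (phi 0.087), Vpreb3 (0.086) and Fcer2a (0.084), and all 3 phi values were under 0.02 in neonatal cells. Neurl3 was most like Ighd, which encodes the heavy chain of IgD, at 0.146 in adult and 0.120 in neonatal cells. It was next most like the chemokine receptor gene Ccr7 (0.101) and Ebf1 (0.095), a B lineage transcription factor. Bfsp2 was most like Lgals1 (0.089), which encodes galectin-1, S100a6 (0.087) and AW112010 (0.075), with phi of -0.012, -0.012 and -0.022 in neonatal cells.

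The other members had weaker neighbours. Lmo2 was most like Cd72 (0.071), Blvrb (0.068) and Tor2a (0.066), Gsn most like Sp100 (0.061), Mllt6 (0.060) and Ighd (0.058), Tespa1 most like Snw1 (0.076), Slfn5 (0.064) and Pfkl (0.063), and Hs3st1 most like Sbno2 (0.057), Suco (0.055) and Rap1b (0.054). In neonatal cells Sbno2 and Rap1b had a phi of 0.044 and 0.036 with Hs3st1, and Suco had -0.041. Each value is a maximum taken over 4108 genes.

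Genes related to the members, as partners or as others of the same family or pathway, were listed in 6 groups. The median log2 ratios of these lists lay between -0.35 and 0.05, beside -0.13 over all genes tested. Of 9 measured genes of the Lmo2 complex, 0 were at least 2-fold higher in either library. Lyl1, a helix-loop-helix partner, was at 58.2 CPM in neonatal and 53.1 CPM in adult cells, -0.13 (-0.25 to -0.02). The largest differences of that list were Lmo4, a related LIM-only adaptor, at -0.93 (-1.03 to -0.82), and the E protein gene Tcf3, at -0.89 (-0.98 to -0.79). Tal1, Gata1 and Ldb2 had 0 UMIs in both libraries.

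In the gelsolin family and actin capping list, 0 of 9 measured genes were at least 2-fold higher in adult cells and 1 was lower, Svil, which encodes supervillin, from 26.6 to 10.8 CPM or -1.31 (-1.51 to -1.10). The next was cofilin, Cfl1, at -0.26 (-0.29 to -0.23). Among 11 measured genes of calcium release and Tespa1 binding, none changed 2-fold, and the largest differences were Stim1, the calcium sensor of the endoplasmic reticulum, at -0.44 (-0.56 to -0.32), and Ssfa2 (also named Itprid2), at -0.20 (-0.43 to 0.05). Itpr1, Itpr2 and Itpr3, the inositol trisphosphate receptors, were at -0.11, -0.19 and -0.16.

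Of 6 measured intermediate filament and lamin genes, Krt18 was higher in adult cells, from 0.37 to 1.27 CPM or 1.80 (0.56 to 3.32), and Lmna lower, from 124 to 42.1 CPM or -1.56 (-1.66 to -1.47). Bfsp1, which pairs with Bfsp2 in the lens, was at 0 and 0.058 CPM. Of 11 measured heparan sulfate genes none changed 2-fold, with Hs2st1, a 2-O-sulfotransferase, at -0.51 (-0.72 to -0.30) and Ndst1, an N-deacetylase and sulfotransferase, at -0.37 (-0.59 to -0.14). Of 8 measured Neuralized and Notch genes, the Notch target Hes1 was lower in adult cells, from 36.4 to 14.7 CPM or -1.31 (-1.48 to -1.13), and Dtx1, another Notch-induced gene, was at 13.8 and 20.2 CPM, 0.55 (0.33 to 0.77). Across the 6 lists, 1 gene was at least 2-fold higher in adult cells, and 3.25% of all genes tested were. Svil, Lmna and Hes1 were at least 2-fold lower, and 3.96% of all genes tested were.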

How the data were processed

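The 10x Genomics 3′ v3 libraries of sorted mouse heart B cells, 1 neonatal and 1 adult, were analysed. The authors deposited UMI counts per gene and droplet barcode, made with Cell Ranger (3.0.2 in the file headers) against mm10, for all barcodes and without a cell filter. Antibody rows held 3 and 2 UMIs and were not used. The members and gene lists were chosen with earlier results of these data known.

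Cells were droplets with at least 2000 gene UMIs, at most 10% mitochondrial UMIs and a Cd79a UMI. UMIs were summed per library or class and divided by total gene UMIs (CPM), with exact Poisson intervals. Ratios had exact conditional binomial intervals, and the difference between 2 ratios a normal interval on the log scale. Shares used cells thinned to 2000 UMIs (fixed seed), with exact Clopper-Pearson intervals. Cr2, Fcer2a and other markers were called after thinning, and levels in those classes used all UMIs. Intervals were at the 95% level. Genes entered the background with at least 50 UMIs. No clustering and no doublet caller were used. The sort gated out doublets before loading, which does not remove droplets that took up 2 cells: 80 neonatal cells held both Xist and Y-linked UMIs, with a median of 12559 UMIs. Named genes were all members, the 3 genes with the highest phi for each, and the 2 largest differences of each list of related genes. Intervals were tested on simulated counts (for the ratios, 10703 genes with 200 changed), and thinning on adult droplets of these data. Python 3.11.15, numpy 2.4.6, scipy 1.17.1 and pandas 2.3.3 were used. Alternatives varied the filters, scaling, thinning and free RNA.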

Additional observations from a re-analysis of the deposited data

Results flagged for a closer look

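A pair of contrasts inside the libraries ran in opposite directions at the 2 ages, with both intervals clear of 0. Bfsp2 was higher in cells with an S100a6 UMI than in those without in the adult library, with a log2 difference of 0.41, and lower in the neonatal library, with -0.52. Neurl3 was higher in cells with a Vpreb3 UMI in the adult library, at 0.53, and lower in the neonatal library, at -0.17. With 1 library per age the difference between the ages was not tested, and these were the 2 that met the rule of opposite intervals among the contrasts of 7 members with 8 markers. Cells with and without S100a6 or Vpreb3 also differed in depth in both libraries, and the part of depth was not tested. S100a6 and Vpreb3 were called from 1 random draw of the thinned UMIs. The intervals do not cover that draw, and these contrasts were not repeated with another.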

How the results depend on the processing

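The adult over neonatal ratio of each member stayed above 0 under all 14 alternatives run on it, between 0.80 and 1.67, and 82 of those 98 values stayed within the member's interval. Of these, 12 varied filters, scaling, weighting, shared barcodes, deep droplets, sex, other cell types and free RNA, and 2, chosen after seeing the data, left Pecam1 out of the endothelial list or kept cells of 4000 to 8000 UMIs. The median of 1.19 was 0.97 as a mean over cells and 0.96 after thinning to 2000 UMIs. Each of these put 3 rather than 4 members past 2-fold, with Bfsp2 at 0.93 and 0.84. Median-of-ratios scaling put 7 past it. The count was 5 without the Cd79a requirement or without droplets over 2.5 times the median UMIs. It was also 5 with male neonatal cells only and at 4000 to 8000 UMIs. At 4000 to 8000 UMIs Bfsp2 was at 0.83. In cells without Cr2 the median of 1.14 was 0.92 with Cr2 as sequenced. With Cr2, medians ran from 0.81 to 1.58, within the interval of Gsn, the median member (0.23 to 1.69).

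Counts of members 1.5-fold higher with Cr2 were not stable. The adult count of 0 became 2 with another thinning seed or with cells holding other cell type markers left out, and 1 with Cr2 as sequenced, with UMIs thinned to 2000, without droplets over 2.5 times the median UMIs, or at 4000 to 8000 UMIs. The neonatal count of 2 became 0 with another seed, with Cr2 as sequenced or at 1000 UMIs, 4 with cells holding other markers left out, and 1 with a minimum of 4000 UMIs, no mitochondrial limit, no deep droplets, or at 4000 to 8000 UMIs. Leaving out cells holding other cell type markers kept 1442 neonatal and 2606 adult cells. With Pecam1 off that list, 2026 and 3528 cells were kept, and the counts were 0 in adult and 2 in neonatal cells, as in the main result. The alternatives without the mitochondrial limit or without the Cd79a requirement also drew the thinned UMIs afresh. Those that only left cells out kept the main draw. Cr2 results at a minimum of 500 UMIs were not run, since such cells cannot be thinned to 2000. The background share of 3.25% was 2.01% with a gene minimum of 200 UMIs and 14.4% with a minimum of 1. No paired analysis was possible because each age has 1 library. Few UMIs limit the small neonatal classes: Gsn rested on 18 UMIs in the 109 cells with Cr2, and Bfsp2 on 6 UMIs in the 39 cells with both Cr2 and Fcer2a.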
